A study of Homo sapiens with 6 samples.

Results

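The comparison described here sets human embryonic stem cell clones that carried a form of the histone H2A.X that cannot be phosphorylated at its tail, called gamma_OFF, against clones that carried the eGFP vector alone, called CTRL. It rests on 4 of the 6 arrays of the series, 2 in each group, which the sample descriptions assign to gamma_OFF and CTRL by name. Of the 53617 rows of the deposited table, the 16098 rows with 1 gene symbol were used, and a gene with several rows was read from its brightest row on average over the 6 arrays, which left 14884 genes. The remaining group, called gamma_ON, shows where gamma_OFF differed from the other H2A.X vector, and its 2 arrays also enter the shared estimate of spread behind every p-value.

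All clones were derived from H9, an established line of human embryonic stem cells. They were made with lentiviral vectors of the pHIV type, in which the EF1α promoter, a constitutive promoter, drives the insert and an IRES couples it to eGFP. The gamma_OFF insert was H2A.X with the substitutions T136A and S139A, which replace the threonine and the serine of the tail with alanines. The gamma_ON insert carried S139E instead, a glutamate that mimics a phosphorylated serine. The CTRL vector had no H2A.X insert. Transduced cells positive for both GFP and the pluripotency surface antigen TRA 1-60 were sorted and plated singly on mouse embryonic fibroblast feeders, and colonies were expanded there, fed with feeder-conditioned medium and 8 ng/ml bFGF. The labels name no deletion of the cells' own H2AX, and no group carried an unmutated H2A.X insert, so the expression of extra H2A.X and the loss of the phosphorylation site cannot be told apart in gamma_OFF against CTRL. Whether the replicates of a vector are separate clones is not stated, so the p-values measure only how these samples spread, possibly for technical reasons, and an effect of 1 clone or of a vector's insertion site cannot be told apart from an effect of the insert. H2AX had 0 named rows, so neither the insert's level nor the cells' own H2AX was analysed here.

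H2A.X is a variant of histone H2A that is part of the nucleosome throughout the genome. When DNA breaks, the kinases ATM, ATR and DNA-PK phosphorylate the serine near the end of its tail, and the phosphorylated form, γH2A.X, binds MDC1 and gathers repair and checkpoint proteins around the break. Human pluripotent cells carry γH2A.X without added damage, and the series title names a role of it in their self-renewal and differentiation.

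The label of the cells was checked against markers. Of 10 markers of pluripotent cells, 9 had a named row, and their mean level was 10.14 and 10.29 on the CTRL arrays and 10.36 and 10.42 on the gamma_OFF arrays, on the log2 scale of the deposited values. On gamma_OFF replicate 1, 8 of the 9 lay above the median gene of the array, and on replicate 2 all 9 did. SOX2 read 11.39 and 11.43 in CTRL and 11.64 and 11.60 in gamma_OFF, LIN28A read 11.90 and 11.95 against 12.07 and 12.23, and POU5F1, which encodes OCT4, read 7.10 and 7.41 against 7.59 and 7.64. NANOG read 6.26 and 6.70 in CTRL and 6.65 and 7.29 in gamma_OFF. None of these 4 passed the test, with adjusted p-values of 0.250 for SOX2, 0.225 for LIN28A, 0.118 for POU5F1 and 0.163 for NANOG.

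The gamma_OFF arrays resembled each other less than the arrays of the other groups did. Over the 14884 genes, which do not count as replicates, the gamma_OFF arrays had a Pearson's r of 0.986, and r was 0.994 both between the CTRL arrays and between the gamma_ON arrays, and gamma_OFF replicate 1 had r = 0.987 with gamma_ON replicate 2. The number of genes that differed by more than 2-fold between replicates was 51 in gamma_OFF, 13 in CTRL and 26 in gamma_ON. The SD over genes was 1.64 on gamma_OFF replicate 2 and 1.70 on replicate 1, against 1.76 to 1.81 on the other 4 arrays, so the signal range was narrower on both gamma_OFF arrays.

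Of the 14884 genes, 1317 (8.85%) differed between gamma_OFF and CTRL at an adjusted p under 0.05 in limma, the threshold at which a gene is said here to have risen or fallen. Of these, 412 genes (2.77% of all) rose and 905 (6.08%) fell, and 16 that rose and 124 that fell changed by at least 2-fold. Against gamma_ON, gamma_OFF was higher for 300 genes (2.02%) and lower for 592 (3.98%), a total of 892 (5.99%). The contrasts share the gamma_OFF arrays, so their values are given side by side and are not independent of each other. Levels of gamma_OFF and CTRL did not overlap for 61.3% of all genes, 31.1% with gamma_OFF higher and 30.2% with gamma_OFF lower, so a lack of overlap by itself is common here.

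The number of genes called changed with single arrays. It was 189 when CTRL replicate 1 was left out and 131 when CTRL replicate 2 was. It was 389 in the fit that lacked gamma_OFF replicate 2 and 3515 in the fit that lacked gamma_OFF replicate 1. In all 4 of these fits and in the fit of all arrays, 76 genes were called, 9 higher and 67 lower. In 950 of the 1317 called genes the difference from the CTRL mean was larger on gamma_OFF replicate 2 than on replicate 1. With only the 4 arrays compared, or with either gamma_ON array left out, it was 567. With the unnamed rows also in the fit, an alternative added after the data were seen, 210 of the genes were called. In the text below, "in every leave-one-out fit" refers to the 4 fits without 1 CTRL or gamma_OFF array.

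**Figure D1:**
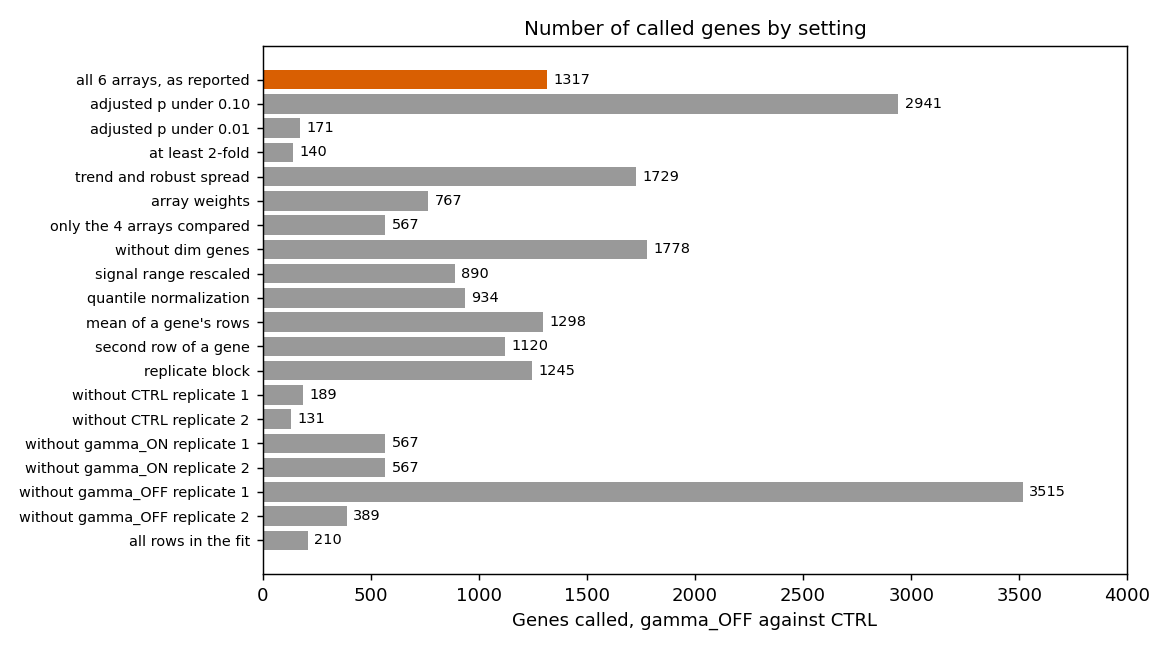
Number of genes called between gamma_OFF and CTRL (horizontal axis) under each setting, with the fit of all 6 arrays in orange and the alternatives in grey. The count ran from 131 without CTRL replicate 2 to 3515 without gamma_OFF replicate 1, around 1317 with all arrays.

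Dim and bright genes were shifted in opposite directions. With the genes sorted by mean level into 5 groups of equal size, the median difference of gamma_OFF from CTRL was 0.16 in the dimmest group, 0.15 in the next, 0.02 in the middle, -0.10 in the fourth and -0.14 in the brightest, while over all genes it was 0.01. In the dimmest group 140 genes rose and 63 fell, and in the brightest 33 rose and 238 fell. On both gamma_OFF arrays the dimmest group lay above 0 and the brightest below it, at 0.12 and -0.07 in the dimmest and brightest groups on replicate 1 and 0.19 and -0.21 on replicate 2, whereas gamma_ON was at 0.01 and 0.07. On replicate 1 the fourth group lay lowest, at -0.08. After each array was scaled to the same range, the medians of the mean of both arrays were 0.06, 0.12, 0.04, -0.03 and 0.00 from the dimmest to the brightest group, 890 genes were called, and 63.1% of these were lower, against 68.7% before. Whether the narrower range is technical or comes from the cells was not tested.

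**Figure D2:**
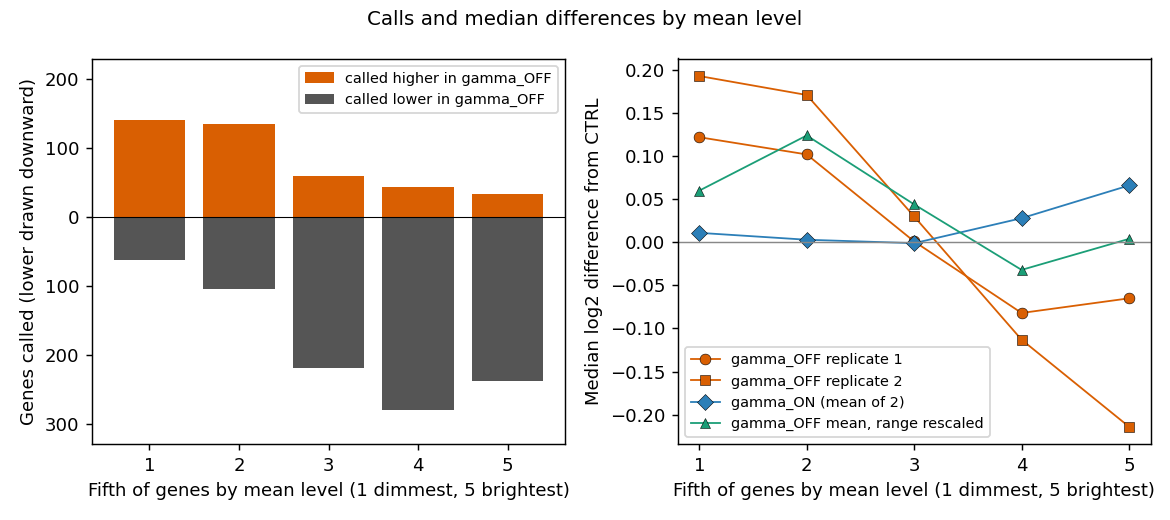
Left, numbers of genes called higher (orange, upward) or lower (dark grey, downward) in gamma_OFF than in CTRL, by group of mean level. Right, median log2 difference from the CTRL mean in each group for both gamma_OFF arrays, for gamma_ON, and for gamma_OFF after rescaling. Dim genes lay above 0 and bright genes below 0 on both gamma_OFF arrays, from 0.19 down to -0.21 on replicate 2.

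The gene with the largest rise was CCDC152, a coiled-coil gene whose RefSeq locus overlaps that of SELENOP, the gene of the secreted selenium carrier selenoprotein P. CCDC152 read 4.51 and 4.79 in CTRL, 5.38 and 5.04 in gamma_ON and 8.38 and 7.72 in gamma_OFF. Both gamma_OFF arrays stood far above the other 4, with a difference from CTRL of 3.40 ± 0.22 (log2, SE, adjusted p = 0.00050), and a difference from gamma_ON of 2.84 (adjusted p = 0.00032). It was called in every leave-one-out fit. The table holds no detection calls, so a level within the range of the dimmest group of genes, which ends at 5.68, may be background, and a difference from such a level may be understated. This holds for CCDC152 in CTRL and gamma_ON, for QNG1 in the same groups, for ZNF732 in gamma_OFF, and for other genes with such levels, small RNA genes such as MIR19B2 among them. SELENOP itself had no named row and was not analysed here, and the nearest tested genes on either side, GHR and ANXA2R, differed from CTRL by 0.02 and -0.05.

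QNG1, which encodes an enzyme that releases queuine for the modification of transfer RNA, read 5.20 and 5.32 in CTRL, 5.35 and 5.20 in gamma_ON and 6.57 and 6.29 in gamma_OFF. The CTRL and gamma_ON arrays overlapped and the gamma_OFF arrays lay above all of them (1.17 ± 0.14 above CTRL, adjusted p = 0.0045, and 1.16 above gamma_ON, adjusted p = 0.0041). NPTX1, which encodes a secreted pentraxin of synapses, followed the same order, at 6.81 and 6.71 in CTRL, 6.94 and 6.81 in gamma_ON and 7.75 and 7.99 in gamma_OFF (1.11 ± 0.13 above CTRL, adjusted p = 0.0045). ACOT2, a mitochondrial acyl-CoA thioesterase, rose by 0.93, CNKSR2, a scaffold of neuronal synapses, by 0.99, and CNTN1, a neuronal adhesion protein, by 1.26. All of QNG1, NPTX1, ACOT2, CNKSR2 and CNTN1 were called in every leave-one-out fit. The other protein-coding genes among the 15 with the largest rise that the naming rule took were AFP, CD6, GAGE10, IZUMO2, KRTAP2-2, PNRC2, SLFN13, ZNF619 and ZNF727, and each lost its call in at least 1 such fit. For CD6, an immune cell receptor that rose by 0.88, the adjusted p was 0.067 without CTRL replicate 1, and for GAGE10, a cancer-testis gene that rose by 0.98, it was 0.20 without CTRL replicate 2.

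The zinc finger gene ZNF732 separated all 3 vectors. It read 6.94 and 6.96 in CTRL, 8.60 and 8.55 in gamma_ON and 4.81 and 5.17 in gamma_OFF. Gamma_OFF was the lowest group, with a difference of -1.96 ± 0.14 (log2, SE) from CTRL (adjusted p = 0.00053), and of -3.58 from gamma_ON (adjusted p = 7.2e-06). The genes next to it among those tested, ZNF718 and ZNF141, also fell against CTRL, by 0.71 (adjusted p = 0.020) and 0.80 (adjusted p = 0.024), while SLC49A3 beyond them differed by 0.07 (adjusted p = 0.70). Zinc finger genes share near-identical repeats, so how the array's probes divide signal among neighbouring copies is uncertain.

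FLRT3, a membrane protein that guides axons and promotes FGF signalling, read 9.01 and 8.71 in CTRL, 8.84 and 8.72 in gamma_ON and 7.19 and 7.11 in gamma_OFF. The gamma_OFF arrays lay below all 4 others, and the difference from CTRL was -1.71 ± 0.13, or 3.27-fold lower (adjusted p = 0.00094), with -1.63 from gamma_ON (adjusted p = 0.00055). HABP2, a hyaluronan-binding serine protease, read 8.38 and 7.96 in CTRL, 8.25 and 8.20 in gamma_ON and 6.92 and 6.80 in gamma_OFF (-1.31 ± 0.15 from CTRL, adjusted p = 0.0044, and -1.37 from gamma_ON, adjusted p = 0.0030). PRTG, an immunoglobulin-type receptor of the early embryo, read 9.74 and 9.43 in CTRL, 10.62 on both gamma_ON arrays, and 8.33 and 8.53 in gamma_OFF, and TMEM88, an inhibitor of WNT signalling, read 9.87 and 9.80, 10.69 and 10.68, and 8.76 and 8.89 in the same order. For both genes gamma_ON was the highest group and gamma_OFF the lowest, with adjusted p-values of 0.0051 and 0.0044 against CTRL. FLRT3, HABP2, PRTG and TMEM88 were called in every leave-one-out fit.

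**Figure D3:**
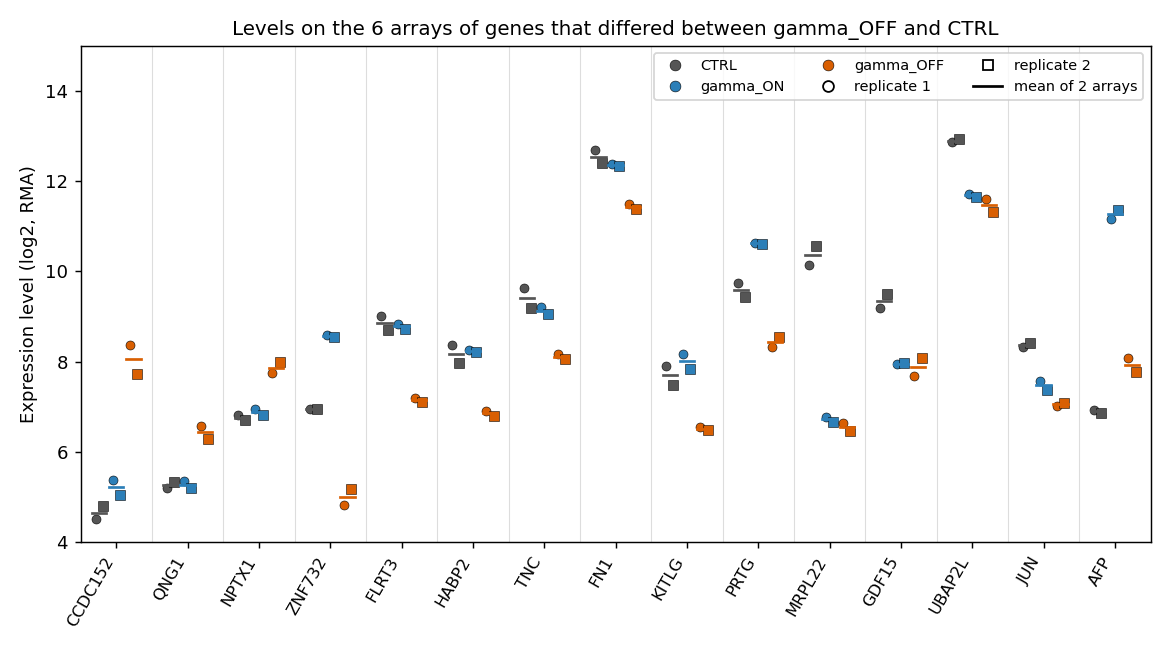
Expression level (log2, RMA values as deposited) of 15 genes on each of the 6 arrays, by vector (colour) and replicate (circle or square), with a bar at the mean of 2 arrays. From CCDC152 to PRTG the gamma_OFF arrays stand apart from both other vectors, from MRPL22 to JUN both H2A.X vectors lie below CTRL, and AFP is highest in gamma_ON.

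For other genes gamma_OFF lay near gamma_ON, and CTRL stood apart. The largest fall against CTRL was that of MRPL22, a protein of the large mitochondrial ribosomal subunit, which read 10.14 and 10.57 in CTRL, 6.78 and 6.67 in gamma_ON and 6.64 and 6.47 in gamma_OFF. The difference of gamma_OFF was -3.80 ± 0.16 from CTRL, or 14.0-fold lower (adjusted p = 2.2e-05), and -0.17 from gamma_ON (adjusted p = 0.46). Of 73 measured genes of the mitochondrial ribosome, MRPL22 and MRPS25 fell, none rose, and the median was -0.02. UBAP2L, an RNA-binding protein of stress granules, read 12.86 and 12.95 in CTRL, 11.71 and 11.66 in gamma_ON and 11.61 and 11.33 in gamma_OFF (-1.44 ± 0.13, adjusted p = 0.0024). The difference between gamma_OFF and gamma_ON for UBAP2L was -0.22 (adjusted p = 0.26). ICAM1, an adhesion receptor of inflamed cells (-1.08), SAT1, a polyamine acetyltransferase (-1.04), STMN2, a microtubule regulator of neurons (-1.06), and HSPA1B, an inducible HSP70 chaperone (-0.96), also fell against CTRL and differed from gamma_ON by -0.11, 0.07, -0.18 and 0.28, none of which passed the test. ICAM1 and SAT1 were picked after their values were seen.

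Many targets of p53 were lower in gamma_OFF. The tumour suppressor p53 is activated by DNA damage and other stress and induces genes of cell cycle arrest, antioxidant defence and apoptosis. Of 25 measured targets, 13 fell and 0 rose, against 6.08% of all genes that fell, and the median difference was -0.51, against 0.01 over all genes. The median was -0.38 on gamma_OFF replicate 1 and -0.76 on replicate 2, and it was -0.43 after rescaling and -0.50 after quantile normalization. Against gamma_ON, 7 of the 25 were lower, with a median of -0.31. The number that fell was 6 when either CTRL array was left out, 14 on gamma_OFF replicate 2 alone and 8 on gamma_OFF replicate 1 alone, and 5 of the 13 were called in every leave-one-out fit. The p53 gene itself and its targets CDKN1A, MDM2 and FAS had no named row and were not analysed here.

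Among p53 targets that signal outside the cell, GDF15, a stress cytokine, read 9.19 and 9.51 in CTRL, 7.94 and 7.96 in gamma_ON and 7.68 and 8.07 in gamma_OFF. CTRL lay above both vectors (gamma_OFF -1.47 ± 0.16 from CTRL, adjusted p = 0.0037, and -0.07 from gamma_ON, adjusted p = 0.77). EDA2R, a receptor of the tumour necrosis factor family, stepped down across the groups, at 9.05 and 9.11 in CTRL, 8.55 and 8.46 in gamma_ON and 7.75 and 7.59 in gamma_OFF (-1.41 ± 0.12, adjusted p = 0.0015, and -0.84 from gamma_ON, adjusted p = 0.010). KITLG, the ligand of the KIT receptor, read 7.90 and 7.49, 8.18 and 7.83, and 6.54 and 6.49 in the same order, so that gamma_OFF was the lowest group (-1.18 ± 0.17, adjusted p = 0.0081, and -1.49 from gamma_ON, adjusted p = 0.0033). Without CTRL replicate 1 the adjusted p for KITLG was 0.051.

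PURPL, a long noncoding RNA that p53 induces, read 9.62 and 9.88 in CTRL, 8.37 on both gamma_ON arrays and 8.31 and 7.80 in gamma_OFF (-1.70 ± 0.17, adjusted p = 0.0033). TRIM22, an antiviral ubiquitin ligase, read 7.89 and 8.11 in CTRL and 6.84 and 6.81 in gamma_OFF (-1.18, adjusted p = 0.0037), and TP53INP1, a stress protein that acts with p53 and in autophagy, read 7.76 and 7.75 against 6.89 and 6.65 (-0.99, adjusted p = 0.0060). The kinase PLK2 fell by 0.91, the sestrin SESN1, which restrains mTORC1, by 0.78, the ribonucleotide reductase subunit RRM2B by 0.70, RPS27L by 0.70, the F-box protein FBXO22 by 0.68, cyclin G1 (CCNG1) by 0.64 and SESN2 by 0.51. Of the targets with a role in apoptosis, BAX, BBC3, PMAIP1 and TP53I3 did not pass the test. BAX differed by -0.28 (adjusted p = 0.15), BBC3, which encodes PUMA, by 0.05 (adjusted p = 0.80), PMAIP1, which encodes NOXA, by -0.48 (adjusted p = 0.12), and TP53I3 by 0.07 (adjusted p = 0.70).

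**Figure D4:**
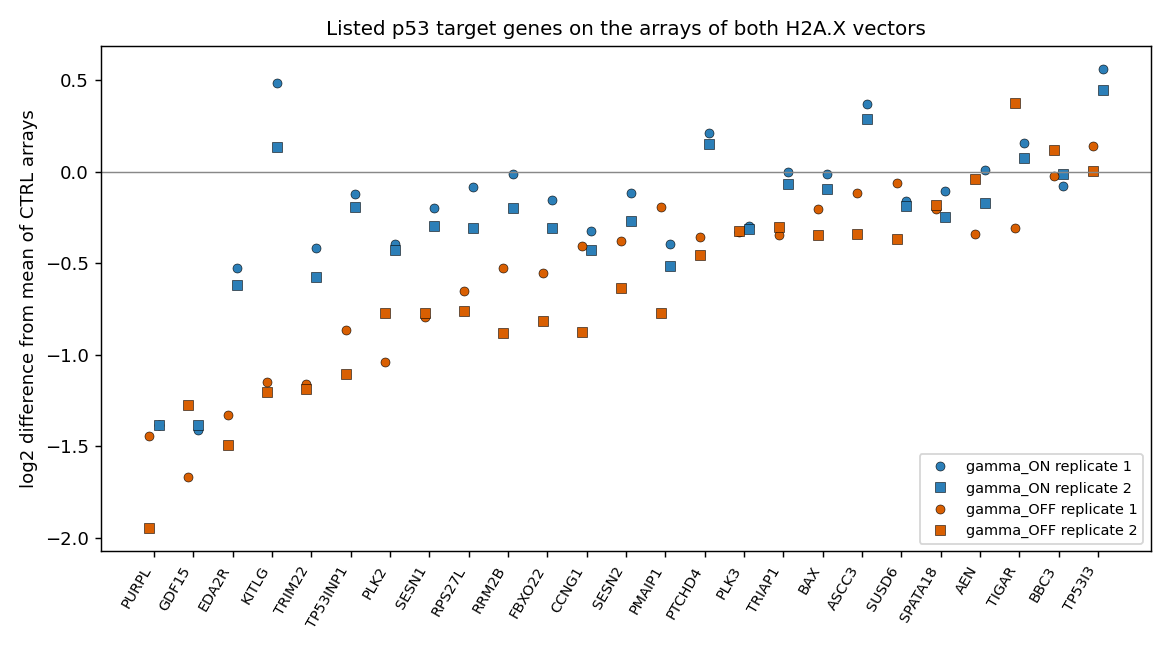
Difference of each gamma_OFF (orange) and gamma_ON (blue) array from the mean of the CTRL arrays (log2, vertical axis) for the 25 measured p53 targets, ordered by the gamma_OFF mean. The genes on the left, from PURPL at -1.70, lie far below 0 on both gamma_OFF arrays, and TP53I3 on the right lies at 0.07.

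No gene of the DNA break machinery was called. Of 30 measured genes of double-strand break signalling and repair, 0 passed the test in either direction, with a median of -0.04. Of 15 measured readers, kinases and phosphatases of H2A.X, 0 passed, with a median of 0.03. Among all genes 8.85% were called. At an unadjusted limma p under 0.05 the numbers were 4 of the 30, with 1 higher, and 3 of the 15, all lower, against 30.4% of all genes. MDC1, the reader of γH2A.X, read 9.34 and 9.38 in CTRL and 9.39 and 9.50 in gamma_OFF (0.08 ± 0.12, adjusted p = 0.67). TP53BP1, a mediator of break repair, read 8.76 and 8.59 against 8.54 and 8.05 (-0.37 ± 0.17, adjusted p = 0.18), and NBN, a subunit of the break sensor, read 7.95 and 7.72 against 8.03 and 7.78 (0.07 ± 0.15, adjusted p = 0.78). The median of the 30 break genes was 0.02 on gamma_OFF replicate 1 and -0.17 on replicate 2, against 0.01 and 0.02 over all genes.

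Few genes of the cell cycle were called against CTRL, where 8.85% of all genes were called. Of 29 measured genes of the G1/S step and DNA replication, 1 rose, E2F8, a repressor of the E2F family (0.68, adjusted p = 0.020), and the median was 0.13. Of 42 measured genes of G2 and mitosis, 1 fell, PTTG1, which encodes securin (-0.61, adjusted p = 0.033), and the median was 0.02. MCM2, a subunit of the replicative helicase, read 9.36 and 9.29 in CTRL and 9.66 and 9.57 in gamma_OFF (adjusted p = 0.14), and MKI67, the proliferation antigen, 9.95 and 9.80 against 9.89 and 9.91 (adjusted p = 0.90). After rescaling, the median against CTRL was 0.24 for the G1/S list, with 5 genes called higher and 0 lower. For the mitosis list it was 0.17, with 3 higher and 1 lower, so these counts changed with the scaling. Against gamma_ON the medians were -0.31 for the G1/S list and -0.30 for the mitosis list, with 1 and 2 genes called lower.

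**Figure D5:**
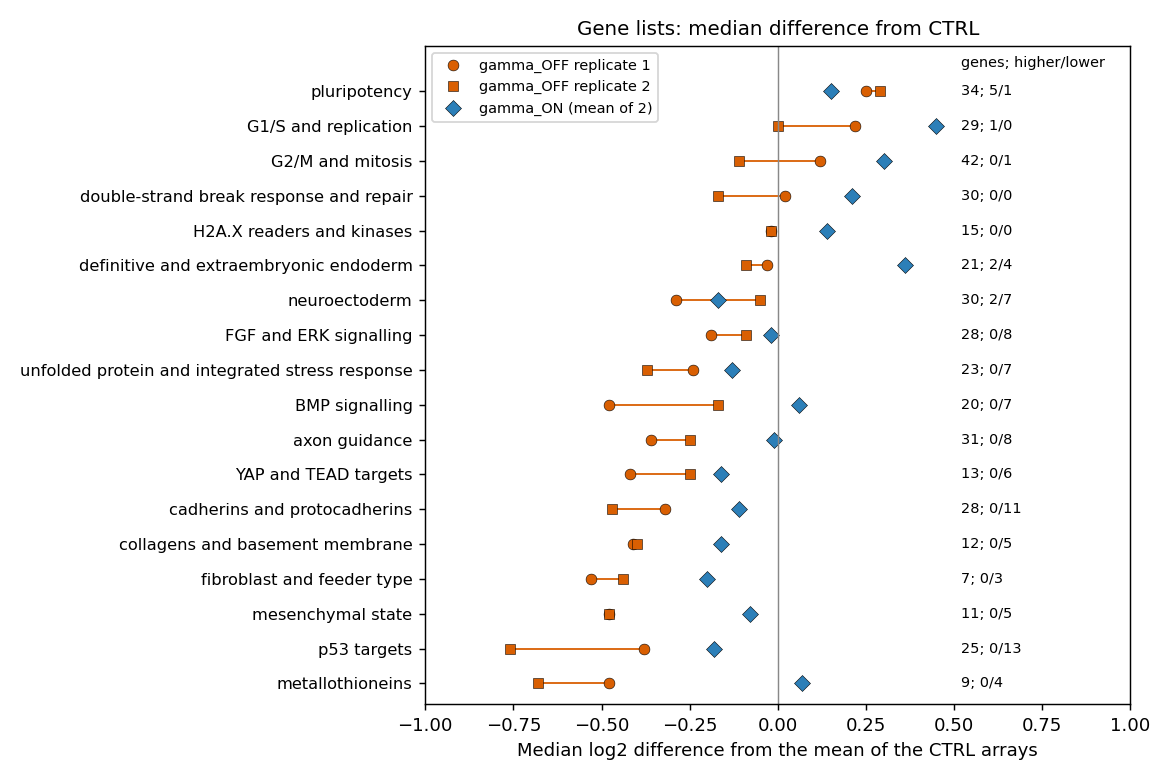
Median log2 difference from the CTRL mean (horizontal axis) of 18 gene lists on gamma_OFF replicate 1 (circle), gamma_OFF replicate 2 (square) and in gamma_ON (blue diamond), with the number of measured genes and the numbers that rose and fell in gamma_OFF at the right. On replicate 2 the p53 targets lie at -0.76 and the metallothioneins at -0.68, below the other lists drawn, and the pluripotency list lies at 0.25 and 0.29.

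Several genes of the extracellular matrix and of the mesenchymal state fell in gamma_OFF. Fibronectin and tenascin are matrix proteins that cells bind through integrins, and the transcription factors SNAI2 and ZEB2 drive the loss of epithelial contacts. Of 11 measured mesenchymal genes, 5 (45.5%) fell and 0 rose (median -0.49). Of 12 measured genes of matrix and basement membrane, 5 (41.7%) fell and 0 rose (median -0.40), with FN1 counted in both. Among all genes 6.08% fell. Against gamma_ON 4 of the 11 and 7 of the 12 were lower and 0 higher. FN1, which encodes fibronectin, read 12.68 and 12.40 in CTRL, 12.39 and 12.34 in gamma_ON and 11.50 and 11.38 in gamma_OFF. Both gamma_OFF arrays lay below the other 4 (-1.11 ± 0.13 from CTRL, adjusted p = 0.0048, and -0.93 from gamma_ON, adjusted p = 0.010). TNC, which encodes tenascin C, read 9.64 and 9.18, 9.21 and 9.05, and 8.17 and 8.05 in the same order, again with gamma_OFF lowest (-1.30 ± 0.16, adjusted p = 0.0054, and -1.02 from gamma_ON, adjusted p = 0.015). The fibrillins FBN1 and FBN2, which form microfibrils, fell by 1.02 and 0.95, and perlecan (HSPG2), a basement membrane proteoglycan, by 0.73. HAS2, the hyaluronan synthase, read 10.09 and 9.72 in CTRL, 10.45 and 10.38 in gamma_ON and 9.16 and 8.78 in gamma_OFF (-0.93, adjusted p = 0.016, and -1.44 from gamma_ON, adjusted p = 0.0039), and was picked after its values were seen.

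SNAI2 read 9.94 and 9.48 in CTRL and 8.71 and 8.57 in gamma_OFF (-1.07 ± 0.16, adjusted p = 0.0085), and the intermediate filament protein vimentin (VIM) 9.56 and 9.33 against 8.61 on both gamma_OFF arrays (-0.84 ± 0.12, adjusted p = 0.0085). ZEB2 fell by 0.63 and the receptor kinase AXL by 0.55, whereas TWIST1 and TWIST2 differed by -0.25 and 0.43 and did not pass the test. FN1 and TNC were called in every leave-one-out fit, but without CTRL replicate 1 only 1 mesenchymal gene and 2 matrix genes were called lower, and without CTRL replicate 2 the numbers were 3 and 4. CTRL replicate 1 had the higher mean over the mesenchymal list, at 8.10 against 7.80 on CTRL replicate 2, with 7.45 and 7.55 in gamma_OFF. The epithelial list, of 18 measured genes, had a median of 0.06 and 1 gene that fell, desmoplakin (DSP, -0.49, adjusted p = 0.036).

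The culture held feeder fibroblasts of mouse origin. Of 15 fibroblast markers 7 had a named row, and 3 of the 7 fell, against 6.08% of all genes. Of the 3, TNC and FBN1 are also among the matrix genes above and TAGLN is not. The mean level of the 7 was 7.99 and 7.75 in CTRL, 7.91 and 7.81 in gamma_ON and 7.41 and 7.28 in gamma_OFF. The decorin gene DCN read 5.84 and 5.60 in CTRL and 5.89 and 5.60 in gamma_OFF, and LUM, which encodes lumican, read 9.42 and 8.84 against 9.09 and 8.69 (adjusted p = 0.43). Of the 7, 4 lay above the median gene on each gamma_OFF array and 5 on each CTRL array, and the collagen markers COL1A1, COL1A2 and COL3A1 were not analysed here. The part of feeder or differentiated cells in the matrix result was not tested, and in bulk RNA fewer cells of a type and less RNA per cell cannot be told apart.

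Cadherins and protocadherins are calcium-dependent adhesion proteins, of which the clustered protocadherins give neurons a surface identity. Of 28 measured genes 11 (39.3%) fell and 0 rose (median -0.37), against 6.08% of all genes that fell. In the beta protocadherin cluster, which was picked out after the values were seen, 8 of 16 fell (median -0.49). PCDHB10 read 7.48 and 7.40 in CTRL, 7.13 on both gamma_ON arrays and 6.26 and 6.42 in gamma_OFF (-1.10 ± 0.12, adjusted p = 0.0037, and -0.79 from gamma_ON, adjusted p = 0.012), and was called in every leave-one-out fit. PCDHB3 and PCDHB4 fell by 1.18 and 1.19, but differed from gamma_ON by -0.31 and -0.25, which did not pass the test. PCDH10 read 8.58 and 8.21 in CTRL, 9.24 and 8.95 in gamma_ON and 7.45 and 7.44 in gamma_OFF, with gamma_ON highest and gamma_OFF lowest. The beta protocadherins are near-identical copies, so the levels of single members are uncertain. Without CTRL replicate 2 only 2 of the 28 were called lower, and without CTRL replicate 1 it was 4. In the beta cluster the numbers were 1 and 3.

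Axon guidance genes also pattern early embryonic tissues. Of 31 measured genes 8 (25.8%) fell and 0 rose (median -0.32), against 6.08% of all genes that fell. Beside FLRT3, the netrin receptor DCC fell by 1.10, the ephrin EFNB2 by 0.84, the repellent ligand SLIT2 by 0.83, the ephrin receptors EPHA2 and EPHA7 by 0.81 and 0.73, NRP1 by 0.53 and PLXNA1 by 0.45. SLIT2 read 8.53 and 8.03 in CTRL, 8.73 and 8.60 in gamma_ON and 7.44 and 7.46 in gamma_OFF, lowest in gamma_OFF, whereas DCC read 8.37 and 7.83, 6.63 and 6.71, and 7.04 and 6.96, highest in CTRL. The number of axon guidance genes called lower was 1 without CTRL replicate 1 and 3 without either CTRL replicate 2 or gamma_OFF replicate 2.

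FGF signals through ERK, and the medium of these cells contained bFGF. Feedback inhibitors such as the Sprouty proteins and the phosphatase DUSP6, and the ETV transcription factors, are known outputs of that pathway. Of 28 measured genes of the list 8 (28.6%) fell and 0 rose, against 6.08% of all genes that fell. The median was -0.19, and -0.06 after rescaling. SPRY2 read 8.55 and 8.42 in CTRL, 8.33 and 8.19 in gamma_ON and 7.63 and 7.28 in gamma_OFF (-1.03 ± 0.14, adjusted p = 0.0079, and -0.81 from gamma_ON, adjusted p = 0.025). ETV5 read 7.47 and 7.45, 7.56 and 7.38, and 6.77 and 6.72 (-0.71 ± 0.12, adjusted p = 0.013, and -0.72 from gamma_ON, adjusted p = 0.018). For both genes the gamma_OFF arrays lay below the other 4. SPRY4 fell by 0.78, DUSP6 by 0.74, the FGF antagonist IL17RD by 0.60 and the early gene IER3 by 0.65, while ETV4, DUSP4 and the receptor FGFR2 differed by -0.35, -0.51 and -0.35 and did not pass. The number called lower was 2 in the fit without CTRL replicate 1 and 3 in that without CTRL replicate 2.

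AP-1 is a dimer of JUN and FOS family proteins that is induced by growth factors and stress. Of 14 genes of AP-1 and other early genes, a list made after the values were seen, 4 (28.6%) fell and 0 rose. Among all genes 6.08% fell. JUN read 8.32 and 8.41 in CTRL, 7.57 and 7.38 in gamma_ON and 7.03 and 7.08 in gamma_OFF (-1.31 ± 0.12, adjusted p = 0.0024), and FOSL1, which encodes FRA1, read 7.97 and 8.26, 7.44 and 7.39, and 7.01 and 7.10 (-1.05 ± 0.13, adjusted p = 0.0055). Both were highest in CTRL, were called in every leave-one-out fit, and differed from gamma_ON by -0.42 (adjusted p = 0.067) and -0.36 (adjusted p = 0.11). FOS and EGR1 differed from CTRL by 0.12 and 0.10, with adjusted p-values of 0.60 and 0.70. When either CTRL array was left out, 2 of the 14 were called lower.

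YAP is a coactivator that binds TEAD transcription factors when cells spread or are stretched, and CCN2, ANKRD1 and AXL are among its common readouts. Of 13 measured genes of the list 6 (46.2%) fell and 0 rose, against 6.08% of all genes that fell. The median was -0.34, and -0.22 after rescaling. CCN2, a secreted matricellular protein, read 10.90 and 11.01 in CTRL, 9.94 and 9.73 in gamma_ON and 10.05 and 9.98 in gamma_OFF (-0.94 ± 0.12, adjusted p = 0.0066), with no overlap between CTRL and either vector. ANKRD1, a nuclear ankyrin repeat protein, read 8.71 and 8.34, 7.87 and 7.78, and 7.19 and 7.10, stepping down from CTRL to gamma_OFF (-1.38 ± 0.14, adjusted p = 0.0036, and -0.68 from gamma_ON, adjusted p = 0.039). AJUBA fell by 0.87, CRIM1 by 0.85, AXL by 0.55 and FJX1 by 0.54. WWTR1, which encodes TAZ, and the factors TEAD1 and TEAD4 did not pass, at -0.20, -0.34 and 0.19. THBS1, another matricellular protein, fell by 1.01 and was picked after its values were seen. The number of listed genes called lower was 2 without CTRL replicate 1 and 1 without CTRL replicate 2.

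The promoters of CCN2 and ANKRD1 are shown because both hold repeated copies of the letters that TEAD factors bind. Each run is the 250 bases before the RefSeq start, 5′ to 3′ on the gene's strand, and capitals mark matches to GGAATG on either strand. CCN2 lies at chr6:131951373-131951622 and ANKRD1 at chr10:90921088-90921337, both on the minus strand of GRCh38.p14.
CCN2: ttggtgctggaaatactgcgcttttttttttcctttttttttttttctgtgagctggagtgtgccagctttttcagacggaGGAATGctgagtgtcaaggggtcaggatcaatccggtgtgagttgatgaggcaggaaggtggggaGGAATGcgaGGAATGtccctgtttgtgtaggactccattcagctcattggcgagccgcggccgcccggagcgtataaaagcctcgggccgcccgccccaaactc
ANKRD1: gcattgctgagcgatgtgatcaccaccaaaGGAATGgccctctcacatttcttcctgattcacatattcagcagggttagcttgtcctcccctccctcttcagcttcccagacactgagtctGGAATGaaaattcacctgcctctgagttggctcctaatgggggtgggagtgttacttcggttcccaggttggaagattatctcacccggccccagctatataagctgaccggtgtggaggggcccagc
CCN2 holds 3 matches and ANKRD1 holds 2. Of 35116 promoter windows of this length in the RefSeq table, 11.9% hold at least 1 match, 0.94% at least 2 and 0.0826% at least 3. Of 9 listed genes with a promoter 6 hold a match, the called CCN2, ANKRD1, AJUBA and AXL and the uncalled AMOTL2 and YAP1, while the called FJX1 and the uncalled WWTR1 and AMOTL1 hold none. The motif and the genes were picked after their values were seen, and a match describes the letters only.

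BMP ligands signal through SMAD proteins and favour differentiation of human pluripotent cells, and SMAD6, SMAD7 and BAMBI are inhibitors that the pathway itself induces. Of 20 measured BMP genes 7 (35.0%) fell and 0 rose (median -0.32), against 6.08% of all genes that fell. Against gamma_ON 8 were lower and 1 was higher, beside 3.98% and 2.02% of all genes. Of the ligands, BMP5 read 7.09 and 6.68 in CTRL, 7.38 and 7.18 in gamma_ON and 5.84 and 5.66 in gamma_OFF (-1.13 ± 0.16, adjusted p = 0.0078, and -1.53 from gamma_ON, adjusted p = 0.0024), and was called in every leave-one-out fit. BMP2 fell by 0.76, and BMP6 differed by -0.46 without passing. Of the inhibitors, SMAD6 read 7.96 and 7.67, 7.96 and 7.76, and 6.61 and 6.91 (-1.05 ± 0.16, adjusted p = 0.0085), BAMBI 9.28 and 9.04, 9.85 and 9.71, and 8.47 and 8.33 (-0.76, adjusted p = 0.014), and SMAD7 fell by 0.50. For SMAD6 and BAMBI the gamma_OFF arrays were the lowest of the 6. GATA3, a transcription factor that BMP induces in early surface ectoderm and trophoblast, fell by 0.83, and TBX3, a T-box factor, by 0.75. Leaving out CTRL replicate 1 left 1 of the 20 called lower, and leaving out CTRL replicate 2 left 4.

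The WNT, Notch and Nodal pathways were examined in the same way, beside the 6.08% of all genes that fell and the 2.77% that rose. Of 29 measured WNT genes 3 (10.3%) fell and 0 rose, and the median was -0.16, or -0.06 after rescaling. Those that fell were RSPO3, a secreted potentiator (-1.02, adjusted p = 0.0073), FRZB, a secreted antagonist (-0.71), and the coreceptor LRP6 (-0.59). Of 20 measured Notch genes 5 fell, among them NOTCH1 (-0.67), NOTCH2 (-0.57) and the ligand JAG1 (-0.64), and 1 rose, the ligand DLL4 (0.78). Of 15 measured genes of Nodal and Activin signalling, FST, the Activin antagonist follistatin (-0.54), and SMAD7 fell, and LEFTY2, a Nodal inhibitor, rose. LEFTY2 read 7.76 and 7.74 in CTRL, 6.96 and 6.54 in gamma_ON and 8.61 and 8.38 in gamma_OFF, so that CTRL lay between the vectors (0.74 ± 0.16, adjusted p = 0.028, and 1.74 from gamma_ON, adjusted p = 0.00099). LEFTY1 read 7.12 and 7.44, 7.10 and 6.91, and 7.79 and 7.76 (0.50, adjusted p = 0.059, and 0.77 from gamma_ON, adjusted p = 0.025), and was picked after its values were seen. Without CTRL replicate 1 the adjusted p for LEFTY2 was 0.12, and no WNT or Nodal gene was called. Without CTRL replicate 2, 1 WNT gene was called and no Notch or Nodal gene.

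Most pluripotency genes read higher in gamma_OFF, though few passed the test. Of 34 measured pluripotency genes 5 rose and 1 fell, against 2.77% and 6.08% of all genes. The median was 0.23, with 27 of 34 above 0. Gamma_ON differed from CTRL by a median of 0.15. Against gamma_ON, gamma_OFF was higher for 2 and lower for 3 of the 34, with a median of 0.06. PRDM14, a repressor that holds cells in the pluripotent state, read 10.90 and 10.89 in CTRL, 11.20 and 11.18 in gamma_ON and 11.41 and 11.46 in gamma_OFF (0.54 ± 0.11, adjusted p = 0.024), and DNMT3B, the de novo DNA methyltransferase of these cells, 11.92 and 11.97, 12.15 and 12.07, and 12.31 and 12.49 (0.46 ± 0.12, adjusted p = 0.049). For both genes the groups stepped up from CTRL to gamma_OFF without overlap, and neither differed from gamma_ON by the test (adjusted p = 0.16 and 0.13). LCK rose by 0.84 and VRTN by 0.68, and DPPA3 fell by 0.72. The number that rose was 1 and 0 when CTRL replicates 1 and 2 were left out, 8 and 2 when gamma_OFF replicates 1 and 2 were, and 9 after rescaling.

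Of 21 measured endoderm genes 4 fell and 2 rose (median -0.06), against 6.08% and 2.77% of all genes. TTR, which encodes the transport protein transthyretin, read 10.60 and 10.11 in CTRL, 11.66 and 11.80 in gamma_ON and 9.30 and 9.48 in gamma_OFF (-0.96 ± 0.17, adjusted p = 0.014), and APOA2, an apolipoprotein, 9.80 and 9.29, 10.60 and 10.71, and 8.41 and 8.20 (-1.24 ± 0.17, adjusted p = 0.0073). In both, gamma_ON was the highest group and gamma_OFF the lowest. FGB, a fibrinogen chain, fell by 0.75 and the factor GATA6 by 0.56. AFP, the fetal serum protein, went the other way against CTRL, at 6.93 and 6.86 in CTRL, 11.17 and 11.37 in gamma_ON and 8.08 and 7.76 in gamma_OFF, with gamma_OFF between the other groups (1.02 ± 0.14 above CTRL, adjusted p = 0.0074, and -3.35 from gamma_ON, adjusted p = 9.1e-06). AHSG, another fetal liver protein, had the same order and rose by 0.65. The endoderm factors SOX17 and FOXA2 each differed from CTRL by -0.06 and were not called. Against gamma_ON, 9 of the 21 were lower and 0 higher. In the fit without CTRL replicate 1, 2 of the 21 were higher and 1 lower than in CTRL, and without CTRL replicate 2, 0 and 3.

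Of 30 measured neuroectoderm genes 7 fell and 2 rose (median -0.19), against 6.08% and 2.77% of all genes. MEIS2, a homeodomain cofactor, fell by 0.99, DLK1, an imprinted Notch-like membrane protein, by 0.77, ZIC1 by 0.67, PAX3, a neural crest and dorsal neural tube factor, by 0.66, and the neural stem cell filament nestin (NES) by 0.49. EN1, a midbrain factor, rose by 0.71 and FEZF1, a forebrain factor, by 0.51. FEZF1 read 9.46 and 9.54 in CTRL, 9.19 and 8.96 in gamma_ON and 9.96 and 10.07 in gamma_OFF, highest in gamma_OFF (0.94 above gamma_ON, adjusted p = 0.0078). MEIS2 had a second row that differed in sign, at 0.44 (adjusted p = 0.11). None of the 30 was called without CTRL replicate 1, and without CTRL replicate 2, 1. Among 27 measured HOX genes HOXA2, a hindbrain patterning gene, read 7.61 and 7.19 in CTRL, 6.93 and 6.64 in gamma_ON and 6.15 and 6.04 in gamma_OFF (-1.31 ± 0.16, adjusted p = 0.0058), stepping down without overlap and called in every leave-one-out fit. HOXB2 fell by 0.71 and HOXD9 rose by 0.51. In the HOX list as a whole 2 genes fell (7.41%) and 1 rose, beside 6.08% and 2.77% of all genes. Most of the list lay the other way from HOXA2, with 21 of 27 above 0 and a median of 0.21, or 0.25 after rescaling. Its median level of 6.31 lay in the second-dimmest group of genes, whose median difference was 0.15, or 0.12 after rescaling.

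Metallothioneins are small cysteine-rich proteins that bind zinc and copper and are induced by metals through the factor MTF1. Of 9 measured genes 4 (44.4%) fell and 0 rose (median -0.75), against 6.08% of all genes that fell. MT1F read 8.92 and 8.60 in CTRL, 9.65 and 9.57 in gamma_ON and 7.66 and 7.23 in gamma_OFF (-1.32 ± 0.17, adjusted p = 0.0060, and -2.17 from gamma_ON, adjusted p = 0.00036), and MT2A 9.21 and 8.88, 9.42 on both gamma_ON arrays, and 8.21 and 7.83 (-1.03 ± 0.16, adjusted p = 0.010, and -1.40 from gamma_ON, adjusted p = 0.0039). In both, gamma_OFF was lowest and gamma_ON highest. MT1X read 10.90 and 11.09 in CTRL, 10.22 and 10.14 in gamma_ON and 10.07 and 9.85 in gamma_OFF (-1.03 ± 0.13, adjusted p = 0.0060), where both vectors lay below CTRL. MT1G fell by 1.04, MT1E and MT1H differed by -0.28 and -0.75 without passing, and MT3 by 0.46. The number that fell was 2 when either CTRL array was left out, and without gamma_OFF replicate 1 it was 6. Metallothionein genes are near-identical copies, so the division of signal among them is uncertain.

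The promoters of MT2A and MT1X are shown with the metal response elements that MTF1 binds. Capitals mark TGCGCNC or TGCACNC on either strand, in the 250 bases before the RefSeq start at chr16:56608334-56608583 for MT2A and chr16:56682220-56682469 for MT1X, both on the plus strand of GRCh38.p14.
MT2A: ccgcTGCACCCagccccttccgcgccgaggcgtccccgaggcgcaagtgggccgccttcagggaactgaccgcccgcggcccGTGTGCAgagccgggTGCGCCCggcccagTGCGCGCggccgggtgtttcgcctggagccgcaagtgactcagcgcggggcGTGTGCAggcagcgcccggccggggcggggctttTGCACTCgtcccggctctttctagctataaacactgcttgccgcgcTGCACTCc
MT1X: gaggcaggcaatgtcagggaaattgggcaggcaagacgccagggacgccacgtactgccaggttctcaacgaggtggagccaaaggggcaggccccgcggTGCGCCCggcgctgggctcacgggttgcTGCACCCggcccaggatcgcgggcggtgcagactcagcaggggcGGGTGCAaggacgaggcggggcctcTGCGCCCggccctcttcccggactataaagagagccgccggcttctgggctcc
MT2A holds 7 matches and MT1X holds 4, and MT1H, which was not called, holds 8. Of all 35116 windows 24.8% hold at least 1 match and 0.37% at least 4. 

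TXNIP and ARRDC4 are related arrestin-domain proteins that restrain glucose uptake, and both are known targets of the glucose-sensing factor MondoA. TXNIP read 9.43 and 9.48 in CTRL, 8.92 and 8.88 in gamma_ON and 8.16 and 8.27 in gamma_OFF (-1.24 ± 0.11, adjusted p = 0.0024, and -0.68 from gamma_ON, adjusted p = 0.018). ARRDC4 read 8.62 and 8.91, 8.26 and 8.42, and 7.49 and 7.48 (-1.28 ± 0.13, adjusted p = 0.0036, and -0.86 from gamma_ON, adjusted p = 0.015). Both stepped down from CTRL through gamma_ON to gamma_OFF and were called in every leave-one-out fit. Of the 6 measured arrestin-domain genes, picked as a list after the values were seen, only these 2 were called, and ARRDC3, ARRDC1 and ARRDC2 differed by -0.39, -0.25 and 0.16. The TXNIP promoter is shown with its carbohydrate response element, the paired E-box to which MondoA and its partner MLX bind, in capitals. It lies on the minus strand of GRCh38.p14 at chr1:145996580-145996829.
TXNIP: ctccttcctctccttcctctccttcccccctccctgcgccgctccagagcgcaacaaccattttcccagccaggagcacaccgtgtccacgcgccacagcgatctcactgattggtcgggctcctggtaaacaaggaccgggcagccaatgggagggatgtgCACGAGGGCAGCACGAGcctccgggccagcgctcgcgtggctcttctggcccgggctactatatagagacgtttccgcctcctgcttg
Of all 35116 windows 0.424% hold such a match, and the ARRDC4 window does not hold these letters.

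Of 12 measured heat shock genes 3 fell, HSPA1A, HSPA1B and HSPA4L, and 0 rose, against 6.08% of all genes that fell. HSPA1B read 11.13 and 11.32 in CTRL, 10.06 and 9.92 in gamma_ON and 10.18 and 10.35 in gamma_OFF (-0.96 ± 0.13, adjusted p = 0.0068), and HSPA1A fell by 0.85 (adjusted p = 0.010). They are near-identical copies, and gamma_OFF did not differ from gamma_ON by the test (adjusted p = 0.17 and 0.15). CHORDC1, a cochaperone of HSP90, read 7.58 and 7.68 in CTRL, 6.76 and 6.68 in gamma_ON and 6.13 and 6.45 in gamma_OFF (-1.34 ± 0.14, adjusted p = 0.0033), and was called in every leave-one-out fit. The list's median of -0.10 became 0.05 under both rescaling and quantile normalization, so no direction is given for the list. The CHORDC1 promoter, chosen after its values were seen, is shown because a run of overlapping heat shock elements lies in it. Capitals mark them, found on either strand, at chr11:90223050-90223299 on the minus strand of GRCh38.p14.
CHORDC1: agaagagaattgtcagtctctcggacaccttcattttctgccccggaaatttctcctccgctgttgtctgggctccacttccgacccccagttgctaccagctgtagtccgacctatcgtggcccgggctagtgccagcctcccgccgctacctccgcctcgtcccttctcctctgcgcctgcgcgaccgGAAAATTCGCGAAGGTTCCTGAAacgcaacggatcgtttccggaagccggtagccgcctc
CHORDC1 holds 3 overlapping matches, and 0.441% of all windows hold at least 1. Of 11 listed heat shock genes with a promoter, the called HSPA1A, HSPA1B and HSPA4L hold none, and the 2 with a match, HSPA6 and HSPD1, were not called.

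The unfolded protein and integrated stress responses slow translation and raise folding capacity. Of 23 measured genes of these responses 7 (30.4%) fell and 0 rose (median -0.23), against 6.08% of all genes that fell. DDIT3, which encodes CHOP, a transcription factor of prolonged stress, fell by 0.75 (SE 0.17, adjusted p = 0.030). VLDLR fell by 0.76, STC2 by 0.67, the sensor kinase EIF2AK3 by 0.58, XBP1 by 0.53 and ATF3 by 0.51. Without CTRL replicate 2, 0 of the 23 were called, and without gamma_OFF replicate 1, 11 were called lower. Of 14 measured secreted factors of senescence 4 fell and 0 rose, against 6.08% of all genes that fell. Of the 14, 8 lay below 0 and 6 above, with a median of -0.11. On gamma_OFF replicate 1 the median was 0.04 and on replicate 2 -0.38, so no direction is given for the list. The 4 were the chemokines CCL2 (-1.19) and CXCL14 (-0.61) and the binding proteins IGFBP5 (-1.13) and IGFBP7 (-0.91). CCL2 read 8.36 and 8.31 in CTRL, 7.97 and 7.75 in gamma_ON and 6.87 and 7.43 in gamma_OFF. CCL2 lost its call without CTRL replicate 1 (adjusted p = 0.057), and of the 14 genes 0 were called lower in that fit and 2 without CTRL replicate 2. VEGFA, the vascular growth factor, fell by 0.69. None of 25 measured genes of cholesterol and fatty acid synthesis was called, with a median of 0.00 and 1 gene at an unadjusted limma p under 0.05, against 30.4% of all genes.

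Small noncoding RNA genes held several of the largest differences, and most are dim or repeated. The snaR RNAs are short, highly similar primate transcripts of RNA polymerase III. Of 8 measured rows 4 rose and 0 fell (median 1.30), against 2.77% of all genes that rose. SNAR-B1 read 10.44 and 10.50 in CTRL, 11.45 and 11.35 in gamma_ON and 11.88 and 12.79 in gamma_OFF (1.86 ± 0.24, adjusted p = 0.0062), with the groups in steps and gamma_OFF replicate 2 far above replicate 1. SNAR-C1, SNAR-D and SNAR-H rose by 1.78, 1.38 and 2.21. The list's median was 0.73 on gamma_OFF replicate 1 and 1.87 on replicate 2, and without CTRL replicate 1 or CTRL replicate 2 the number that rose was 2. Their copies are near-identical, so these rows may measure the same transcripts.

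Small Cajal body RNAs guide the modification of spliceosomal RNAs. Of 23 measured genes 12 (52.2%) fell and 0 rose (median -0.48), against 6.08% of all genes that fell. Gamma_ON differed from CTRL by a median of -0.25. Against gamma_ON, gamma_OFF was lower for 3 of the 23 and higher for 0, with a median of -0.33. SCARNA1 read 5.77 and 5.56 in CTRL, 5.65 and 5.57 in gamma_ON and 4.39 and 4.45 in gamma_OFF. The gamma_OFF arrays lay below the other 4 (-1.25 ± 0.12, adjusted p = 0.0031, and -1.19 from gamma_ON, adjusted p = 0.0024), and SCARNA1 was called in every leave-one-out fit. SCARNA17 read 11.52 and 11.46 in CTRL, 10.87 and 10.89 in gamma_ON and 10.83 and 9.71 in gamma_OFF, so that its fall of 1.22 came mostly from gamma_OFF replicate 2. SCARNA9 and SCARNA15 fell by 1.60 and 1.82. The number that fell was 4, 3 and 7 when CTRL replicate 1, CTRL replicate 2 and gamma_OFF replicate 2 were left out.

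The X-linked miR-106a-363 cluster encodes microRNAs of the same families as the miR-17-92 cluster, which promote the G1/S transition. Its 6 mature sequences are shown 5′ to 3′ from RefSeq, with the seed, bases 2 to 8, in capitals, because they form 4 seed groups.
miR-106a-5p: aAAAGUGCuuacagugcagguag
miR-20b-5p: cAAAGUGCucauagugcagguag
miR-18b-5p: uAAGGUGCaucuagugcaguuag
miR-19b-3p: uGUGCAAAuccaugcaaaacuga
miR-92a-3p: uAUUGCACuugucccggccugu
miR-363-3p: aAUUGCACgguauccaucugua
Of the 6 measured hairpin genes, a list made after the values were seen, 4 fell, and the median was -0.98. Among all genes 6.08% fell. MIR19B2, the hairpin of miR-19b-3p, read 4.98 and 5.70 in CTRL, 3.33 and 3.21 in gamma_ON and 3.24 and 2.82 in gamma_OFF (-2.31 ± 0.23, adjusted p = 0.0031). MIR18B fell by 2.09, MIR20B by 1.14 and MIR363 by 0.83, while MIR106A and MIR92A2 differed by -0.81 and -0.46 without passing. All 4 that fell lay near gamma_ON, with no test passed between the vectors, and only MIR19B2 was called in every leave-one-out fit. Without CTRL replicate 2 or gamma_OFF replicate 2, 2 of the 6 were called. These rows read precursor or primary transcripts on a gene array, not mature microRNAs.

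Over all 1098 microRNA genes the median difference was 0.14, and it was 0.07 after rescaling. Their median level was 5.16, within the dimmest group of genes, which had a median difference of 0.16. Of the 1098, 11.6% were called, against 8.85% of all genes, and 5.19% fell, against 6.08%. In numbers, 70 rose and 57 fell. The numbers were 9 and 26 without CTRL replicate 1, and without CTRL replicate 2 they were 3 and 14. In the primate miR-548 family 10 of 40 measured genes (25.0%) fell and 1 rose, against 5.19% of all microRNA genes that fell. The family's median level was 3.85, within the dimmest group of genes, so many of its levels may be background. MIR548I2 was far brighter than that median. MIR548I2 read 8.39 and 8.48 in CTRL, 7.65 and 7.61 in gamma_ON and 6.83 and 6.65 in gamma_OFF, stepping down without overlap (-1.70 ± 0.12, adjusted p = 0.00053, and -0.89 from gamma_ON, adjusted p = 0.0083). MIR548I1 fell by 1.62, and as the family's members are similar in sequence these levels may not be independent. In the fits without CTRL replicate 1 and CTRL replicate 2, 6 and 4 of the 40 were called lower. MIR205 read 8.38 and 8.72 in CTRL, 7.46 and 7.51 in gamma_ON and 7.27 and 7.25 in gamma_OFF (-1.29, adjusted p = 0.0037), and MIR302A, of the cluster most abundant in human pluripotent cells, fell by 0.52 while MIR302B differed by 0.30 without passing. MIR205, MIR302A and MIR302B were picked after their values were seen. Keratin-associated protein genes, which build hair, had a median level of 5.33 here, within the dimmest group of genes. Of 85 measured genes 6 (7.06%) rose and 0 fell, against 2.77% and 6.08% of all genes. In the dimmest group 140 of 2977 genes rose. The list's median difference was 0.20, or 0.14 after rescaling, against 0.16 and 0.06 in the dimmest group. Without either CTRL array 0 of the 85 were called.

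Zinc finger genes, which encode DNA-binding proteins, had 471 measured members. Of these 52 fell and 6 rose (median -0.12). ZNF519 read 7.07 and 7.19 in CTRL, 6.85 and 6.38 in gamma_ON and 6.15 and 5.83 in gamma_OFF (-1.14, adjusted p = 0.0097), and ZNF283 fell by 1.05. Without CTRL replicate 2 only 1 zinc finger gene was called lower, ZNF732 being called in every leave-one-out fit, and without CTRL replicate 1 it was 11. Cytosolic ribosomal protein genes had a median of -0.21, which became -0.03 after rescaling, and 2 of 52 (3.85%) fell. The medians of the spliceosome, chromatin regulator and histone chaperone lists, at -0.12, -0.13 and -0.11, were above 0 after rescaling and after quantile normalization. Of their genes 2 of 38 (5.26%), 3 of 34 (8.82%) and 1 of 13 (7.69%) fell, near the 6.08% of all genes. Without CTRL replicate 2 none of the ribosomal, spliceosome and chromatin genes was called lower.

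Genes that rose and genes that fell were found on every chromosome described. The median difference by chromosome lay between -0.04 on chromosome 4 and 0.10 on chromosome X. Of 569 genes on chromosome X, 27 rose (4.75%) and 27 fell (4.75%). Over the chromosomes the share that rose ran from 1.87% to 4.75% and the share that fell from 3.05% to 9.05%, against 2.77% and 6.08% of all genes.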

How the data were processed

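RNA of 6 samples was read on a human whole-transcript gene array. The table deposited by the authors holds log2 values, made with RMA in Partek 6.6 per the submitters' processing notes, so background correction, normalization and probe summary were done before deposit and the median over all array rows lay between 6.11 and 6.25 on the 6 arrays. RMA on closely similar copies, and a normalization that makes arrays alike, can shrink differences. Arrays carry no read depth, and their number limits precision: an exact test of 2 against 2 samples cannot go below p = 0.333.

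Genes were named through the platform annotation, of which 16098 rows have 1 symbol and 37519 are unnamed here. Of the 14884 genes, 779 had several rows. A linear model was fitted with limma 3.58.1 (R 4.3.3) to all 6 arrays, with 3 residual degrees of freedom and 6.05 from the prior, and tables were made with Python 3.11.15 and pandas 2.3.3. Every adjusted p is limma's moderated two-sided test with Benjamini-Hochberg adjustment over all 14884 genes. The fit was tested on simulated data.

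The gene lists and the members were chosen with earlier results of these data known, and 7 of the lists (AP-1, beta protocadherins, arrestin-domain genes, miR-106a-363, miR-548, all microRNA genes and small Cajal body RNAs) and all motifs were chosen after values were seen, so lists are described by counts and medians, with no test. Named are the 15 highest and 15 lowest fold changes among called genes with no overlap of the groups, outside noncoding and provisional symbols, up to 20 called in every leave-one-out fit, up to 10 by the difference from gamma_ON, up to 4 called and 3 uncalled genes of each list, POU5F1, NANOG, SOX2, and neighbours of such genes. The other genes with values were chosen after their values were seen: AHSG, AXL, BAMBI, BAX, BBC3, CCNG1, DCN, DNMT3B, DUSP6, EGR1, EPHA2, EPHA7, ETV5, FBXO22, FEZF1, FJX1, FOS, FOXA2, GATA6, HSPG2, IL17RD, JAG1, LIN28A, MCM2, MDC1, MKI67, NBN, NES, NOTCH2, NRP1, PCDH10, PLK2, PLXNA1, PRDM14, RRM2B, SESN1, SESN2, SOX17, TP53BP1, TP53I3, TP53INP1, TRIM22 and XBP1.

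Alternatives were other thresholds, a trend with robust spread, array weights, the 4 arrays alone, no dim genes (mean under 6), rescaled signal range, quantile normalization, other rows of a gene, the replicate number as a block, leaving out each array, and all rows in the fit. Promoter and microRNA sequences come from RefSeq.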

Additional observations from a re-analysis of the deposited data

How the results depend on the processing

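Of the 1317 genes called between gamma_OFF and CTRL, the count was 2941 at an adjusted p under 0.10, 171 under 0.01 and 140 with a 2-fold minimum, 767 with array weights and 567 with the 4 arrays alone. It was 210 with all array rows in the fit, a setting chosen after seeing the data. Leaving out 1 array in turn gave 131 to 3515. The count stayed within 1.5 times under trend and robust spread (1729), without dim genes (1778), with rescaled range (890), quantile normalization (934) and other rows of a gene (1298 and 1120). Of the 1317 genes, 802 were among those called after rescaling and 806 after quantile normalization. Against gamma_ON the count of 892 was 3121 under 0.10, 83 under 0.01, 98 with a 2-fold minimum, 1596 with trend and robust spread, 229 with array weights, 275 with the 4 arrays of that comparison alone, 1871 without dim genes, 443 rescaled, 471 after quantile normalization and 26 with all rows, and leaving out 1 array gave 49 to 4061. The cause of these changes was not tested, except that fewer arrays leave fewer degrees of freedom. With the replicate number as a block the counts were 1245 and 871. Same-numbered arrays did not deviate together over genes (r = -0.0962, -0.0735 and 0.088 for the 3 pairs of groups). The labels do not say whether the numbers pair samples, and a weak shared deviation could go unseen here.

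Of 335 named genes, 169 of them called, 98 lost their call without CTRL replicate 1, 102 without CTRL replicate 2, 9 without gamma_OFF replicate 1 and 71 without gamma_OFF replicate 2, and 35 after rescaling. The sign turned for MAML2 (0.20, adjusted p = 0.50) and MEIS2 (0.44, adjusted p = 0.11) when a gene's second row was used. Medians of the heat shock, histone, chromatin, spliceosome, mitochondrial ribosome, respiratory chain, oxidative stress, break repair and ion channel lists turned sign after rescaling. A lone array left in a group was assumed to vary like the others.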
